A study of Ovis aries with 62 samples.

Results

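*MAOA* (ENSOARG00000003052) and *SULT1C2* (ENSOARG00000000097) are the 2 genes described here, out of 16011 genes measured in the ventral rumen wall of 62 AUS sheep. They were taken by gene ID. All animals were adult ewes, which the study describes as the daughters of Merino sires, fed the same chaff diet at a fixed multiple of maintenance. Each sheep gave 1 RNA sequencing library, and 16, 16, 14 and 16 sheep were tested in blocks 1, 2, 3 and 4, where a block is a test period. No sheep was treated or selected against another group. The labels gave the live weight, CH4 production and dry matter intake (DMI) of each sheep, and CH4 yield was computed as CH4 production over DMI. Sires were shared between ewes but are not in the labels, so sheep were taken as independent in every test. The samples were whole rumen wall, that is the epithelium together with the muscle coats, and not epithelium alone.

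*MAOA* encodes monoamine oxidase A, an enzyme of the outer mitochondrial membrane that removes the amino group of amines such as serotonin, noradrenaline and, in part, tyramine, and gives an aldehyde, ammonia and hydrogen peroxide. *SULT1C2* encodes a cytosolic sulfotransferase, which moves a sulfonate group from the donor PAPS onto phenols and other hydroxylated compounds and so makes them easier to excrete. The rumen wall faces both kinds of substrate, since rumen microbes release amines from amino acids and phenols from plant material and tyrosine. These are background roles, known mainly from human and rodent enzymes, and neither enzyme activity nor any amine or phenol was measured in these sheep.

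The deposited values are log2 CPM, that is the reads of a gene scaled to the size of its library, on a log2 scale. The libraries held 4208032 to 12130080 assigned reads with a median of 7923973. *MAOA* rested on 1502 to 5624 reads per sheep with a median of 2807, and *SULT1C2* on 72 to 522 reads with a median of 231. Counting error at the median depth was therefore 0.027 on the log2 scale for *MAOA* and 0.095 for *SULT1C2*, against an SD over sheep of 0.39 and 0.63. It made up 0.501% of the variance of *MAOA* and 2.61% of that of *SULT1C2*. The spread between sheep was in both genes far above what the depth alone gives. Reads that fit more than 1 member of the monoamine oxidase or sulfotransferase families could not be examined from the deposited values. *MAOB*, which lies next to *MAOA* on the X chromosome in the RefSeq sheep annotation, was not matched by symbol.

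Over all 62 sheep, *MAOA* had a lowest value of 7.55, a median of 8.51 and a highest value of 9.24 log2 CPM, a 3.24-fold range. *SULT1C2* had a lowest value of 3.34, a median of 4.90 and a highest value of 6.19 log2 CPM, a 7.22-fold range. *SULT1C2* thus varied more between sheep than *MAOA* did. The sheep at the ends of these ranges were not the same. *MAOA* was lowest in oz238 and highest in oz249, and *SULT1C2* was lowest in oz218 and highest in oz93. Within blocks, some of the ends were shared. Sheep oz152 of block 1 was the lowest of its block for both genes (*MAOA* 7.62 and *SULT1C2* 3.38 log2 CPM), and sheep oz218 was the lowest of block 4 for both (7.64 and 3.34 log2 CPM). Sheep oz93 was the highest of block 1 for both genes (*MAOA* 8.95 and *SULT1C2* 6.19 log2 CPM), and sheep oz141 was the highest of block 3 for both (9.05 and 5.84 log2 CPM). The genes had different sheep at both ends of block 2, at the low end of block 3 and at the high end of block 4.

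The first comparison asked whether both genes moved together from sheep to sheep. *MAOA* and *SULT1C2* were high in the same sheep, with *r* = 0.79 (*n* = 62, 2-sided permutation *p* = 1e-05) and rho = 0.74 (*p* = 1e-05). No smaller *p* is possible with 100000 permutations. Without the 2 sheep farthest from the median of *SULT1C2* (oz218 and oz152), *r* was 0.75 (*n* = 60). Blocks 1, 2, 3 and 4 alone gave *r* of 0.77, 0.77, 0.75 and 0.86, so the relation was present in each test period. With live weight and the mean of the muscle genes (defined with the muscle comparison) held constant, the partial *r* was 0.69 (permutation *p* = 1e-05). The relation is not particular to this pair. Among the 16010 other genes, *MAOA* was the 4th closest to *SULT1C2*, while *SULT1C2* was the 18th closest to *MAOA*. Both genes are among the 14 metabolic genes that the study picked from these and the New Zealand libraries by network links as well as by CH4 relations, so a positive relation between them was in part fixed by that choice.

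**Figure D1:**
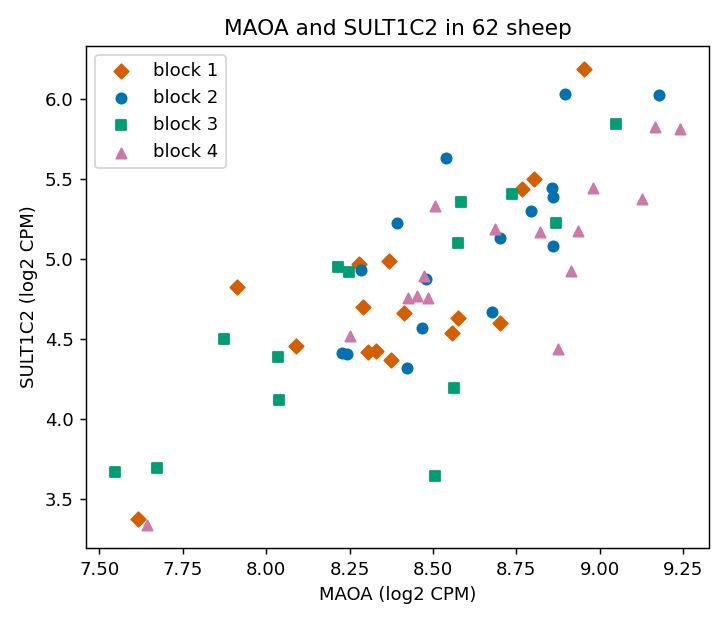
Level of *SULT1C2* (log2 CPM, vertical axis) against that of *MAOA* (log2 CPM, horizontal axis). Each point is 1 of 62 sheep, with a color and symbol for each test block. Sheep of all 4 blocks lie along 1 rising band (*r* = 0.79), with oz218 and oz152 at its lower end.

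Block 1 was compared with blocks 2–4 because the study singled it out. Neither gene passed the test. *MAOA* ranged from 7.62 to 8.95 with a median of 8.37 log2 CPM in block 1, against 7.55 to 9.24 with a median of 8.55 in blocks 2–4. The ranges overlapped almost fully. The difference was -0.16 (SE 0.11, limma adjusted *p* = 0.271 over all genes, permutation *p* = 0.173), with 10 of 16 sheep of block 1 below the median of the other blocks. *SULT1C2* ranged from 3.38 to 6.19 with a median of 4.65 log2 CPM in block 1, against 3.34 to 6.03 with a median of 4.94 in blocks 2–4. Its difference was -0.16 (SE 0.18, limma adjusted *p* = 0.498, permutation *p* = 0.381), with 11 of 16 sheep of block 1 below the median of the others. By the same limma test 36.5% of all genes differed between block 1 and blocks 2–4, so both genes belong to the majority that did not pass.

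The muscle content of the samples differed along with block 1. The mean of the muscle genes was 6.24 log2 CPM in block 1 and 5.82 in blocks 2–4 (difference 0.42, permutation *p* = 4e-05). Holding the muscle mean constant turned the sign of both block differences, to 0.10 (SE 0.11) for *MAOA* and to 0.29 (SE 0.17) for *SULT1C2*, and neither passed (limma adjusted *p* = 0.585 and 0.253). With live weight held constant as well, they were 0.15 and 0.33 (adjusted *p* = 0.312 and 0.160). Without the normalization factor of the libraries, the differences were -0.08 and -0.09. No direction of a block 1 difference can therefore be given for either gene.

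Over the 4 blocks, *MAOA* was highest in block 4 and *SULT1C2* in block 2, and both were lowest in block 3. *MAOA* averaged 8.40 ± 0.34, 8.62 ± 0.28, 8.32 ± 0.45 and 8.69 ± 0.41 log2 CPM in blocks 1, 2, 3 and 4 (SD, *n* = 16, 16, 14 and 16), which puts the blocks in the order 4, 2, 1 and 3. *SULT1C2* averaged 4.76 ± 0.61, 5.09 ± 0.54, 4.64 ± 0.72 and 4.98 ± 0.60 log2 CPM in the same blocks, in the order 2, 4, 1 and 3. For both genes, the differences between neighbors in these orders were smaller than the SD within the blocks. The limma F test over 4 blocks gave F = 3.52 for *MAOA* (unadjusted *p* = 0.0199, adjusted *p* = 0.0684) and F = 1.80 for *SULT1C2* (adjusted *p* = 0.292), against 26.5% of all genes called. The permutation *p* of F was 0.0251 for *MAOA* and 0.184 for *SULT1C2*.

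None of the 6 pairs of blocks passed for either gene by limma. The widest gap of *MAOA* was that of block 4 over block 3, 0.36 (SE 0.13, unadjusted *p* = 0.00778, adjusted *p* = 0.573), in a comparison where 0.0125% of all genes were called. The widest gap of *SULT1C2* was that of block 3 against block 2, -0.45 (SE 0.22, unadjusted *p* = 0.0435, adjusted *p* = 0.755), in a comparison where 0% were called. Block 4 against block 2 also had 0% of genes called. Block 1 stood apart from the others over the whole table. The share called against block 1 was 22.4% for block 2, 24.5% for block 3 and 30.7% for block 4, and the lowest adjusted *p* of the 2 genes in these pairs was 0.0750 (*MAOA*, block 4 over block 1, 0.29, SE 0.13).

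**Figure D2:**
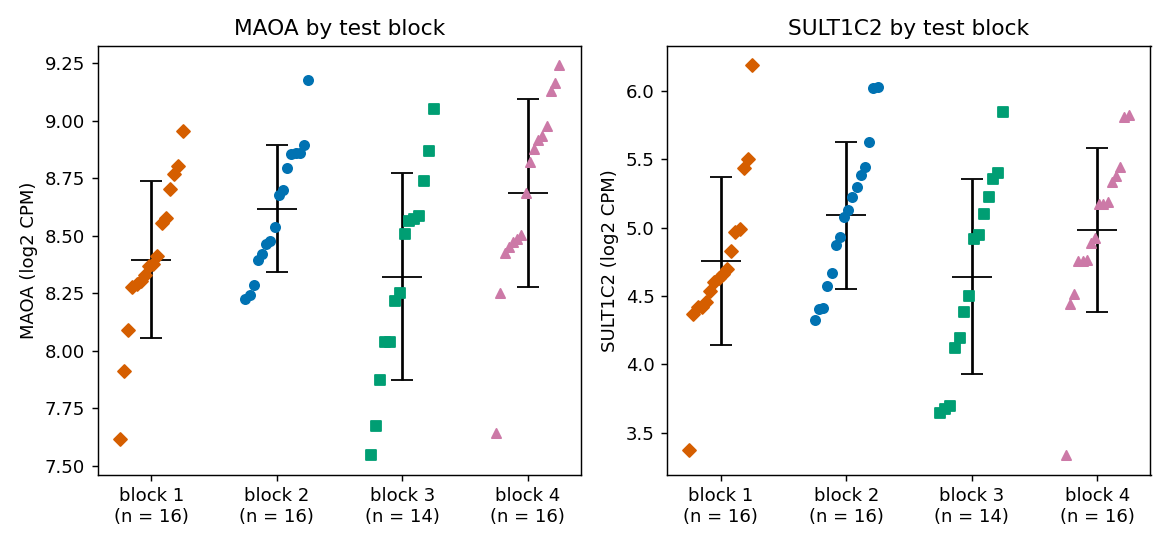
Levels of *MAOA* (left) and *SULT1C2* (right) in log2 CPM by test block. Each point is 1 sheep, spread sideways by rank only, and the black marks are the mean and SD of the block. The 4 blocks overlap over most of their range in both genes, and block 3 has the lowest mean in both.

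Live weight was the trait most clearly related to *MAOA*. The sheep weighed 47.0 to 87.5 kg with a median of 64.2 kg. *MAOA* was higher in heavier sheep, with *r* = 0.41 (*n* = 62, permutation *p* = 0.00083) and rho = 0.42 (*p* = 0.00071). The limma slope was 0.20 log2 units per 10 kg (SE 0.054), a 1.15-fold higher level, and ranked 69th of 16011 genes by *p*. It did not pass over all genes (adjusted *p* = 0.141), in a fit where 0.0187% of genes were called. The lightest sheep, oz183 at 47.0 kg, had 7.67 log2 CPM of *MAOA*, and the heaviest, oz93 at 87.5 kg, had 8.95. Without these 2 sheep, *r* was 0.34 (permutation *p* = 0.00707, *n* = 60). Blocks 1, 2, 3 and 4 alone gave *r* of 0.45, 0.42, 0.41 and 0.18. In the limma test of whether slopes differed between blocks, neither gene passed (adjusted *p* = 1.00 for both) and 0% of genes were called (464 at an unadjusted *p* under 0.05).

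Given the muscle mean, the relation of *MAOA* with live weight passed over all genes. The slope was 0.20 per 10 kg (SE 0.044, limma adjusted *p* = 0.0189), a 1.15-fold higher level, and only 0.487% of genes were called in this fit. *MAOA* ranked 12th of 16011 genes by *p*. The partial *r* was 0.51 (permutation *p* = 2e-05) and the partial rho 0.53 (*p* = 3e-05), and within blocks it was 0.60, 0.58, 0.59 and 0.15 in blocks 1, 2, 3 and 4. Live weight and the muscle mean were themselves almost unrelated (*r* = 0.04). Of the 4 markers of stratified epithelium measured, named with the cell type markers, 0 had a positive slope on live weight in the same fit. Their median was -0.17 per 10 kg against 0.00 over all genes, and 0 of 4 passed by limma (1 at an unadjusted *p* under 0.05, lowest adjusted *p* = 0.113). The part of epithelial content in the slope of *MAOA* was not tested. The slope changed little, while its SE fell to 0.044, against 0.054 without the covariate. The study chose *MAOA* in part for its relation with CH4 production in these libraries among others. CH4 production went with live weight (*r* = 0.49, *n* = 62). The relation of *MAOA* with live weight, with or without the muscle mean, is therefore not independent of that choice.

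The call depended on single sheep, while the direction did not. When each of the 62 sheep was left out in turn, the slope stayed between 0.19 and 0.22 per 10 kg, and the call was lost in 2 of 62 fits. These were the fits without the heaviest sheep oz93 (0.19, limma adjusted *p* = 0.0762) and without the lightest sheep oz183 (0.19, adjusted *p* = 0.0578). Without both, the slope was 0.18 (SE 0.049, adjusted *p* = 0.159, partial *r* = 0.42 with permutation *p* = 0.00059). Without block 1 it was 0.20 (adjusted *p* = 0.0938, *n* = 46). With CH4 production as a further covariate it was 0.17 (adjusted *p* = 0.307), and with DMI in its place 0.19 (adjusted *p* = 0.154, *n* = 61). These fits were chosen after seeing the data.

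*SULT1C2* had a slope of similar size but a wider error. It was 0.16 per 10 kg (SE 0.092, limma adjusted *p* = 0.678), with *r* = 0.21 (permutation *p* = 0.0954) and rho = 0.15 (*p* = 0.242). Given the muscle mean, the slope was 0.18 (SE 0.076, adjusted *p* = 0.358) and the partial *r* was 0.28 (permutation *p* = 0.0289). A single animal carried much of this. Sheep oz93 was both the heaviest and the highest for *SULT1C2*, and without it the slope given muscle was 0.10 (adjusted *p* = 0.752). Without oz93 and oz183, the partial *r* was 0.10 (permutation *p* = 0.460). In blocks 1, 2, 3 and 4 alone, the partial *r* was 0.63, 0.04, 0.44 and -0.16.

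Passing in *MAOA* and not in *SULT1C2* does not show that the genes differed in their relation with live weight. The slope of *SULT1C2* minus that of *MAOA*, given muscle, was -0.03 per 10 kg (95% interval -0.14 to 0.09, permutation *p* = 0.629). The interval leaves room for the slope of *SULT1C2* to be lower by 0.14 or higher by 0.09 per 10 kg.

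**Figure D3:**
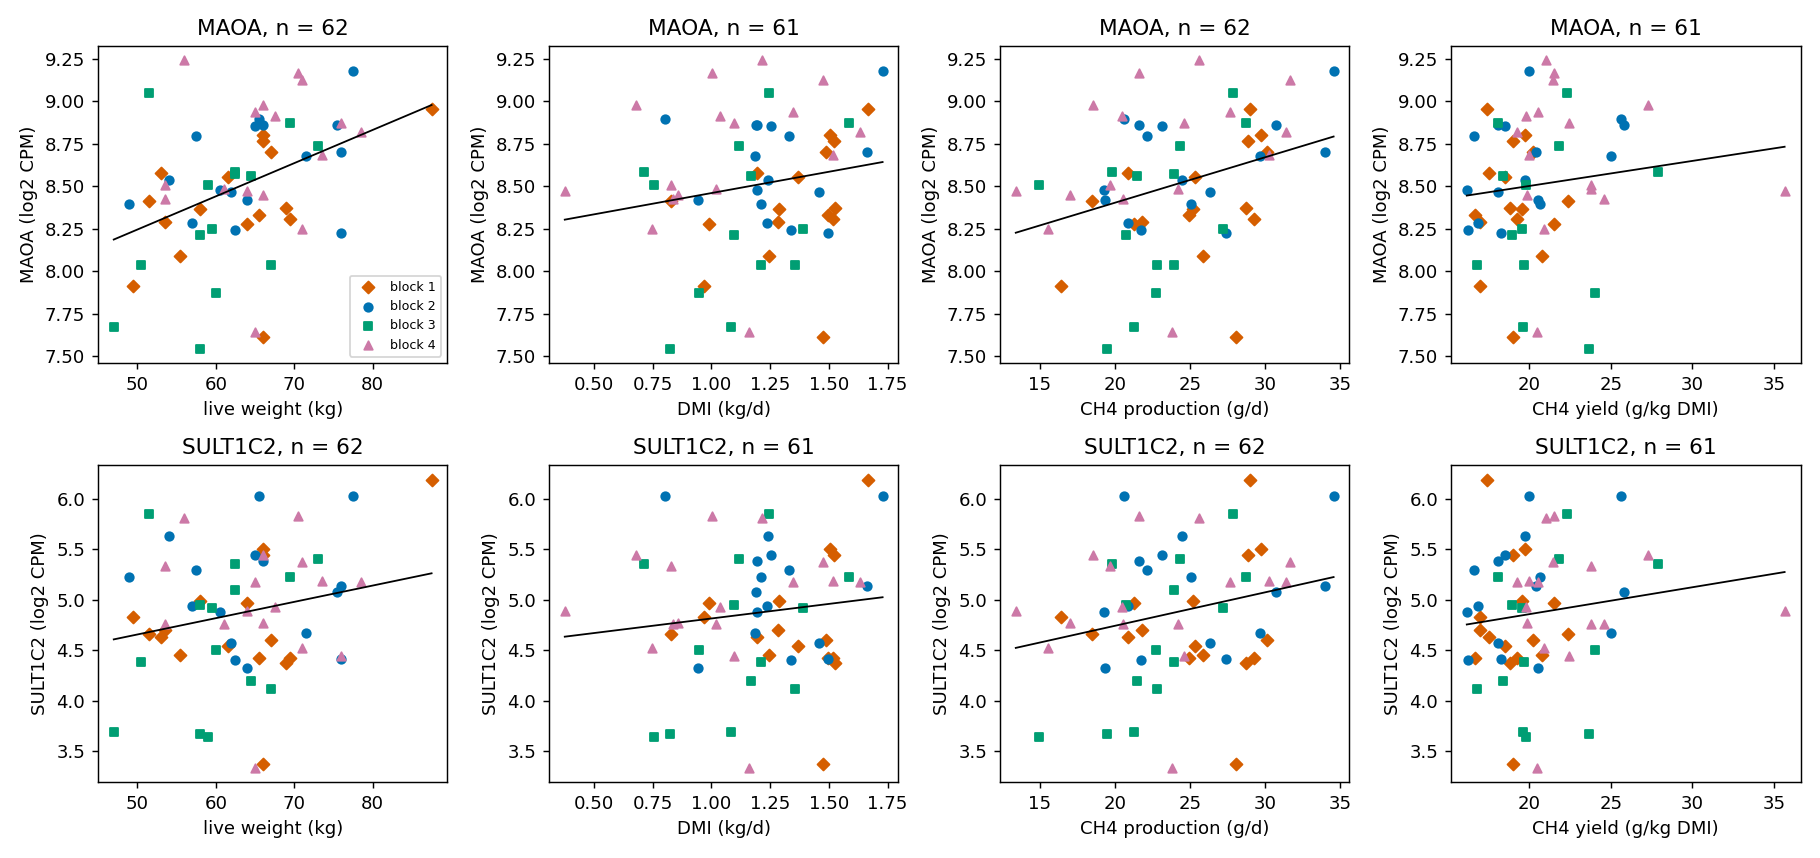
Levels of *MAOA* (top row) and *SULT1C2* (bottom row) in log2 CPM against live weight, DMI, CH4 production and CH4 yield (left to right). Each point is 1 sheep with a color and symbol for its block, and the line is the least squares fit over the *n* sheep in the title of the panel. The clearest trend is that of *MAOA* on live weight (*r* = 0.41), and in the panels on CH4 yield 1 sheep (oz175, 35.7 g/kg DMI) lies far to the right.

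Neither gene passed a test on DMI. Results on DMI and CH4 yield leave out sheep oz151 (block 3), since its labeled DMI of 0.0795 kg/d lies far under the 0.376 to 1.73 kg/d of the 61 other sheep. For *MAOA*, *r* with DMI was 0.18 (*n* = 61, permutation *p* = 0.158) and rho 0.17 (*p* = 0.199), and the slope was 0.25 per kg/d (SE 0.17, limma adjusted *p* = 0.589). For *SULT1C2*, *r* was 0.13 (permutation *p* = 0.310) and rho 0.12 (*p* = 0.355), and the slope was 0.29 per kg/d (SE 0.27, adjusted *p* = 0.716). By limma, 0% of genes were called on DMI (1899 at an unadjusted *p* under 0.05). Without oz175 and oz97, whose DMI lay farthest from the median, *r* was 0.24 for *MAOA* and 0.18 for *SULT1C2*.

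Heavier sheep ate more (*r* = 0.39, *n* = 61), and with live weight held constant the partial *r* with DMI was 0.02 for *MAOA* and 0.05 for *SULT1C2*. With live weight and the muscle mean held constant it was 0.12 (permutation *p* = 0.356) and 0.15 (*p* = 0.261). The slopes in this fit were 0.13 per kg/d for *MAOA* (SE 0.14, limma adjusted *p* = 0.798) and 0.28 for *SULT1C2* (SE 0.24, adjusted *p* = 0.735), where 0% of genes were called (1552 at an unadjusted *p* under 0.05). Given the muscle mean alone, the partial *r* was 0.29 for *MAOA* (permutation *p* = 0.0219) and 0.24 for *SULT1C2* (*p* = 0.0638). The slopes on DMI were not found to differ between blocks for either gene, and 0% of genes were called for this (963 at an unadjusted *p* under 0.05).

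CH4 production ranged from 13.4 to 34.6 g/d with a median of 23.9 g/d. The study chose both genes for their positive relation with CH4 production and yield in these libraries among others, so the values on CH4 are not independent evidence. *MAOA* had *r* = 0.32 with CH4 production (*n* = 62, permutation *p* = 0.0110) and rho = 0.31 (*p* = 0.0139). Its slope was 0.27 per 10 g/d (SE 0.099, 1.20-fold), with a limma adjusted *p* of 0.361. *SULT1C2* had *r* = 0.25 (permutation *p* = 0.0511) and rho = 0.22 (*p* = 0.0924). Its slope was 0.33 per 10 g/d (SE 0.16, 1.26-fold), with an adjusted *p* of 0.532. Over all genes 0.0125% were called on CH4 production, and neither *MAOA* nor *SULT1C2* was among them. Without the 2 sheep farthest from the median (oz132 and oz175), *r* was 0.29 for *MAOA* (permutation *p* = 0.0263) and 0.21 for *SULT1C2* (*p* = 0.113). Sheep oz151 and oz224 of block 3 have the same labeled CH4 production, 23.9 g/d, and both were kept here. Without oz151 the slope was 0.27 for *MAOA* and 0.33 for *SULT1C2* (limma adjusted *p* = 0.372 and 0.542).

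Without covariates, the relation of *MAOA* with CH4 production was positive in each block, and so was that of *SULT1C2*. Within blocks 1, 2, 3 and 4, *r* with CH4 production was 0.37, 0.40, 0.40 and 0.36 for *MAOA*. For *SULT1C2* it was 0.09, 0.17, 0.66 and 0.18. The values of *MAOA* spread out once a covariate was held constant, to 0.59, 0.45, 0.06 and 0.17 given the muscle mean and to 0.05, 0.17, 0.37 and 0.32 given live weight. Given both, they were 0.29, 0.10, -0.12 and 0.13. For *SULT1C2* the values were 0.39, 0.17, 0.47 and -0.03 given the muscle mean and -0.32, 0.24, 0.65 and 0.23 given live weight. Given both, those of *SULT1C2* were -0.12, 0.20, 0.41 and 0.03. The sign thus did not hold in every block once covariates were held constant. The difference between the block slopes did not pass for either gene, and 0% of genes were called for it (1187 at an unadjusted *p* under 0.05).

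Holding live weight constant lowered both relations with CH4 production. CH4 production and live weight were related with *r* = 0.49 (*n* = 62). With live weight held constant, the partial *r* was 0.15 for *MAOA* (permutation *p* = 0.242) and 0.17 for *SULT1C2* (*p* = 0.184). With live weight and the muscle mean both held constant it was 0.16 (permutation *p* = 0.225) and 0.18 (*p* = 0.170). The slopes in this fit were 0.11 per 10 g/d for *MAOA* (SE 0.088, limma adjusted *p* = 0.761) and 0.22 for *SULT1C2* (SE 0.15, adjusted *p* = 0.712), and 0% of genes were called (1358 at an unadjusted *p* under 0.05). Given the muscle mean alone, the partial *r* was 0.37 for *MAOA* (permutation *p* = 0.00304) and 0.28 for *SULT1C2* (*p* = 0.0251). Live weight, and not muscle content, was thus the covariate with which these values fell. Whether weight stands between CH4 production and either gene was not tested.

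Neither gene passed a test on CH4 yield. Over 61 sheep it ranged from 16.2 to 35.7 g/kg DMI with a median of 19.8. *MAOA* had *r* = 0.12 (permutation *p* = 0.339) and rho = 0.22 (*p* = 0.0908), and *SULT1C2* had *r* = 0.14 (permutation *p* = 0.277) and rho = 0.19 (*p* = 0.130). The methods of the study asked for an absolute *r* of at least 0.15 in both of its datasets. Both values of *r* here, without oz151, lie under it, and the reason was not tested. The slopes were 0.15 per 10 g/kg for *MAOA* (SE 0.15, limma adjusted *p* = 0.765) and 0.27 for *SULT1C2* (SE 0.24, adjusted *p* = 0.725), with 0% of genes called (1521 at an unadjusted *p* under 0.05). With live weight and the muscle mean held constant, the slopes were 0.03 (SE 0.11) and 0.08 (SE 0.20), with 0% called (1357 unadjusted). Without the 2 sheep farthest from the median yield (oz175 and oz143), the sign of both turned, to -0.06 for *MAOA* and -0.15 for *SULT1C2*. The slopes on CH4 yield did not pass a test of difference between blocks in either gene, and 0% of genes did (463 unadjusted).

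**Figure D4:**
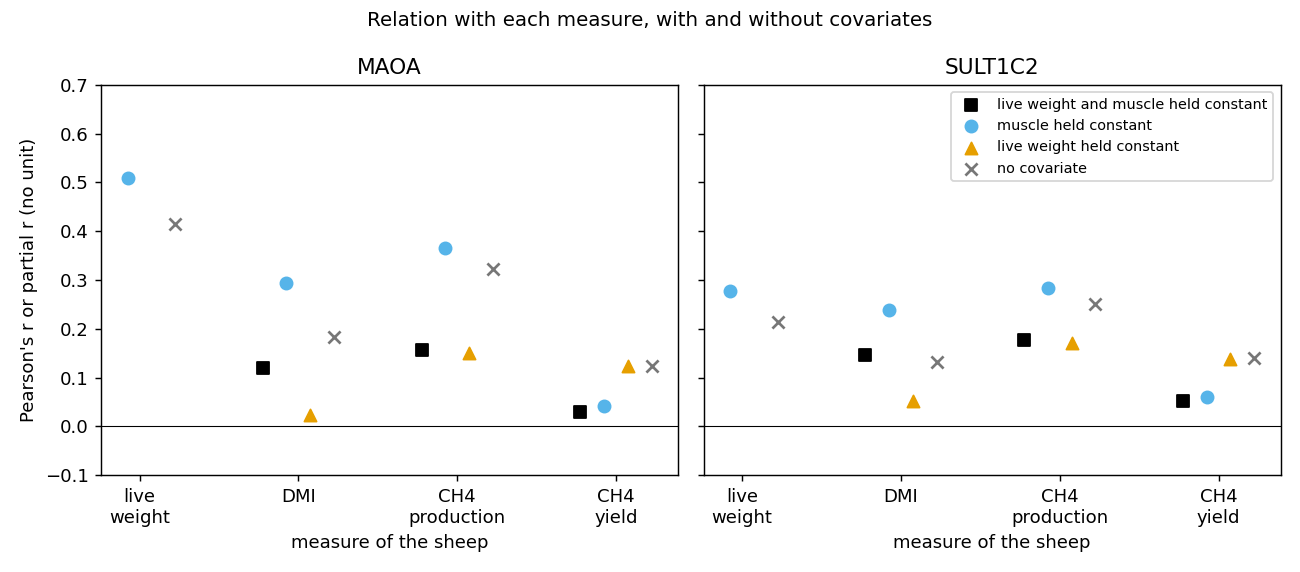
Pearson's *r* or partial *r* (vertical axis, no unit) of *MAOA* (left) and *SULT1C2* (right) with each measure of the sheep, for each set of covariates held constant. For CH4 production, *r* without covariates is 0.32 for *MAOA* and 0.25 for *SULT1C2*, and with live weight held constant it is 0.15 and 0.17.

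Without covariates, each gene had a stronger relation with the muscle content of the sample than with any trait of the sheep. The muscle mean is the mean log2 CPM of all measured genes that the study grouped as muscle genes in a network that includes these libraries, and neither gene is on that list. *MAOA* had *r* = -0.52 with the muscle mean (*n* = 62, permutation *p* = 2e-05, rho = -0.54 with *p* = 1e-05), and its slope was -0.55 per log2 unit of the mean (SE 0.11, limma adjusted *p* = 2.63e-05). *SULT1C2* had *r* = -0.54 (permutation *p* = 4e-05, rho = -0.58 with *p* = 1e-05), and its slope was -0.90 (SE 0.17, adjusted *p* = 1.20e-05). Both genes were therefore lower in samples with more muscle transcripts, 0.685-fold for *MAOA* and 0.538-fold for *SULT1C2* per log2 unit. More than a few genes share this, since 54.9% of all genes were called on the muscle mean, 4145 of 8784 of them upward. In bulk samples, fewer cells of a type and less RNA per cell cannot be told apart. The normalization factor of the libraries also went with both genes, with *r* = -0.40 for *MAOA* and -0.24 for *SULT1C2*, and the number of assigned reads less so (-0.16 and -0.06); their part in these relations was not tested.

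The negative relation was present in each block. Within blocks 1, 2, 3 and 4, *r* with the muscle mean was -0.32, -0.61, -0.60 and -0.63 for *MAOA* and -0.51, -0.65, -0.60 and -0.56 for *SULT1C2*. Without oz141 and oz170, the sheep farthest from the median, *r* was -0.49 and -0.50. In the test of whether these slopes differed between blocks 0.15% of genes were called, and neither gene was. The slope of *SULT1C2* minus that of *MAOA* was -0.35 (95% interval -0.60 to -0.09, permutation *p* = 0.00829). It was 1 of 9 slope differences compared, and its *p* adjusted over the 9 was 0.0746. The other 8 had adjusted *p* of 0.787 to 0.833.

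Cell type markers were read beside these values. The smooth muscle list had 14 of 18 markers measured, with none at 0, and their summed level ranged over 15591 to 82805, 11704 to 67015, 11695 to 61951 and 15747 to 71466 CPM in blocks 1, 2, 3 and 4. The mean of these markers had *r* = -0.45 with *MAOA* and -0.49 with *SULT1C2*. The 4 fibroblast and matrix markers measured (of 8) had *r* = -0.34 with *MAOA* and -0.33 with *SULT1C2*. The 4 markers of stratified epithelium measured (of 14) were *KRT13*, *KRT78*, *CDH1* and *TGM1*, and their mean had *r* = 0.04 with *MAOA* and 0.10 with *SULT1C2*. These 4 did not move together, since on the muscle mean 3 fell by limma and 1 had a positive slope (54.9% of all genes called). The low *r* of their mean therefore does not show that either gene was unrelated to epithelial content. Their summed level ranged over 1376 to 12382, 4885 to 9118, 4143 to 10585 and 6344 to 8309 CPM in blocks 1, 2, 3 and 4. Transcripts of both muscle and epithelium were thus present in every library. Of 7 nerve and glia markers, 6 immune markers and 4 endothelial markers, 0 were matched by symbol, so those cells could not be read. The part of cell content in the relations of both genes was not tested beyond the fits with the muscle mean.

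**Figure D5:**
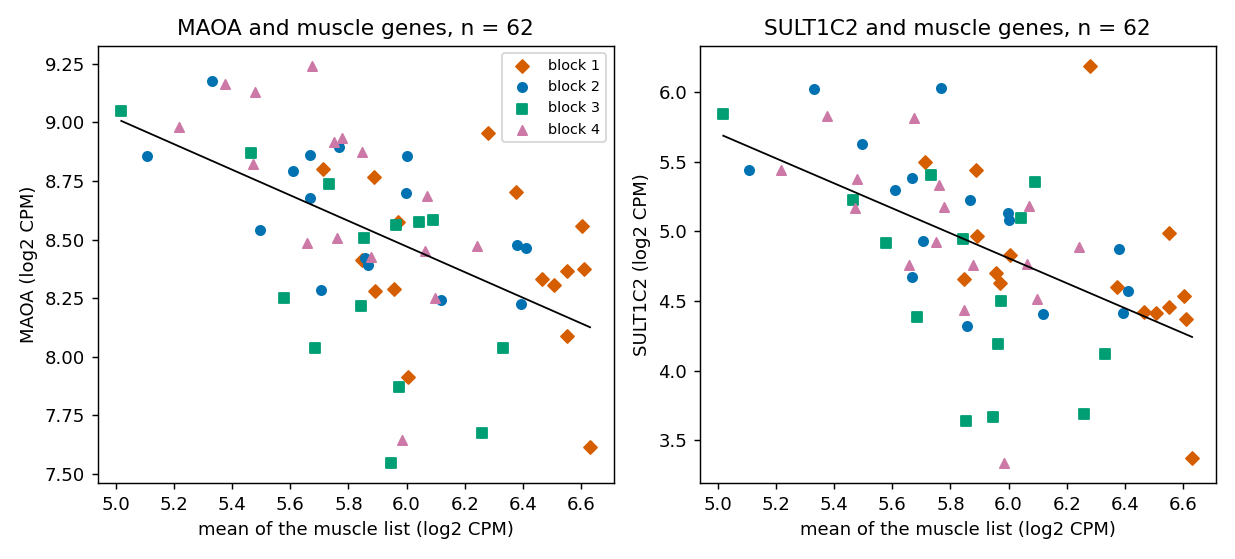
Levels of *MAOA* (left) and *SULT1C2* (right) in log2 CPM against the muscle mean (log2 CPM). Each point is 1 sheep with a color and symbol for its block, and the line is the least squares fit over 62 sheep. Both lines fall (*r* = -0.52 and -0.54), and most sheep of block 1 lie to the right, with a mean of 6.24 against 5.82 in blocks 2–4.

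The genes whose level was most like that of *MAOA* and *SULT1C2* were looked up by Pearson's *r* over the 62 sheep, as a description without a test, among the 1224 genes with a symbol. Nearest to *MAOA* was *SLC16A1* (*r* = 0.90), the monocarboxylate transporter MCT1, which was also the nearest of all genes. Also near was *IVD* (0.87), isovaleryl-CoA dehydrogenase of leucine breakdown. *CA12*, a membrane carbonic anhydrase, had 0.85 and *CMBL*, a hydrolase, 0.84. Lowest were *SLC38A1*, an amino acid transporter (-0.67), *KIAA1614* (-0.66) and *ABCC1*, an export pump (-0.66), all 3 from the muscle cluster of the study.

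*SULT1C2* had a set of near genes that overlapped with that of *MAOA*. Among its nearest were *CA12* (*r* = 0.82), *MAOA* (0.79) and *APEH* (0.79), an enzyme that frees acetylated amino acids from peptides. *DPYSL2* (-0.65), *LRP6* (-0.65) and *SLC38A1* (-0.65) were lowest. *CA12* stands among the 5 nearest of both genes. With the muscle mean held constant, *SLC16A1* remained nearest to *MAOA* (partial *r* = 0.86), and *CA12* (0.82), *IVD* (0.81) and *CMBL* (0.79) were also near. For *SULT1C2* the near genes then included *CA12* (0.77), *APEH* (0.76) and *FPGS* (0.73), which lengthens folates.

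Of the gene clusters of the study, that of lipid and oxo-acid metabolism was closest to both genes. In the supplementary gene lists used here, *SULT1C2* is itself on the list of that cluster and *MAOA* is on no list, and the study built its clusters on networks with these libraries in them. The lists are shorter than the full clusters of the study, and gene numbers here are those on the lists. The 41 listed genes of the cluster had *r* of 0.27 to 0.90 with *MAOA* (median 0.71), and the 40 others had *r* of 0.32 to 0.81 with *SULT1C2* (median 0.63). The median over all genes was 0.00 for *MAOA* and 0.01 for *SULT1C2*. With the mean of this cluster held constant, leaving out both genes from the mean, the partial *r* between *MAOA* and *SULT1C2* was 0.46 (*n* = 62, permutation *p* = 0.0001), and it was 0.07 within block 3 and 0.46 to 0.61 within the other blocks.

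Other gene lists of the study ran differently. The 42 listed genes of general metabolism had a median *r* of 0.39 with *MAOA* and 0.33 with *SULT1C2*, and with the muscle mean held constant 0.05 and -0.05. The 43 listed genes of epithelial differentiation had a median *r* of 0.06 and 0.09. With the muscle mean held constant, the median was -0.38 and -0.37, and 0 of 43 genes had a positive partial *r* with either gene. The 16 type I interferon genes likewise had 0 positive, with medians of -0.26 and -0.35. The 43 cell cycle genes had a median *r* of 0.26 with *MAOA* and 0.29 with *SULT1C2*. With the muscle mean held constant, the median was 0.08 and 0.14, and 37 genes had a positive partial *r* with *MAOA* and 39 with *SULT1C2*. All these values share the same 62 libraries.

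Genes of amine turnover, sulfonation and other conjugation were read from lists of known pathway members. Only genes that the tables of the study name could be matched, most of them from its metabolic clusters, so the matched genes are not a neutral draw of each pathway. Amine turnover had 4 of 37 genes measured by symbol. *MAOA* was joined by *ALDH1A1* and *ADH5*, which oxidize aldehydes and alcohols, and *TPMT*, which methylates thiols. Of these 4 genes, 1 rose with live weight given muscle (0.487% of all genes were called), which was *MAOA* itself. The slopes of the others were 0.11 for *ALDH1A1*, 0.08 for *TPMT* and 0.07 for *ADH5* per 10 kg (limma adjusted *p* = 0.293, 0.216 and 0.428). The median of the 4 was 0.09, against 0.00 over all genes. On the muscle mean, where 54.9% of all genes were called, all 4 fell, with a median slope of -0.60 against -0.03 over all genes. In block 1, where 36.5% of all genes were called, *ALDH1A1* (-0.32, SE 0.10), *TPMT* (-0.24, SE 0.085) and *ADH5* (-0.20, SE 0.071) were lower than in blocks 2–4 (adjusted *p* = 0.0135, 0.0239 and 0.0250), while *MAOA* did not pass. The muscle mean was higher in block 1, and with it held constant 0 of 4 passed by limma (0 at an unadjusted *p* under 0.05), in a fit where 14.4% of all genes were called. The differences were then -0.03 for *ALDH1A1*, 0.05 for *TPMT* and -0.05 for *ADH5* (adjusted *p* = 0.854, 0.647 and 0.692).

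Sulfonation had 6 of 35 genes measured. These were the sulfotransferases *SULT1C2*, *SULT1A1*, the main phenol sulfotransferase in humans, and *SULT2B1*, which sulfonates sterols, with *BPNT1*, which clears the spent PAPS product, *SUOX*, which oxidizes sulfite to sulfate, and *ETHE1*, an oxygenase of sulfide breakdown. Of these 6 genes, 1 passed on live weight given muscle (0.487% of all genes), *BPNT1* with a slope of 0.12 per 10 kg (SE 0.028, limma adjusted *p* = 0.0332). The slope was 0.08 for *SULT1A1* (adjusted *p* = 0.294) and 0.13 for *SUOX* (adjusted *p* = 0.214). *SULT2B1* had the opposite sign, -0.31 (SE 0.091, adjusted *p* = 0.0975). All 6 fell with the muscle mean (54.9% of all genes called), with a median slope of -0.66 against -0.03 over all genes. In block 1 (36.5% called) *SULT2B1* (-0.71, SE 0.19), *ETHE1* (-0.35, SE 0.076) and *BPNT1* (-0.31, SE 0.084) were lower than in blocks 2–4 (adjusted *p* = 0.00239, 0.000166 and 0.00262), while *SULT1A1* (-0.18, adjusted *p* = 0.0829), *SUOX* (-0.23, adjusted *p* = 0.0730) and *SULT1C2* did not pass. With the muscle mean held constant, 0 of 6 passed by limma (1 at an unadjusted *p* under 0.05, 14.4% of all genes called). The differences of the 3 genes were then -0.43 for *SULT2B1*, -0.10 for *ETHE1* and -0.03 for *BPNT1* (adjusted *p* = 0.166, 0.256 and 0.804).

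Other conjugation and export had 11 of 45 genes measured. On live weight given muscle, where 0.487% of all genes were called, 2 of 11 rose by limma. They were *CBR1*, a carbonyl reductase (0.27 per 10 kg, SE 0.060, adjusted *p* = 0.0231), and *UGDH*, which makes the glucuronic acid donor (0.24, SE 0.054, adjusted *p* = 0.0231). The median of the 11 was 0.09 against 0.00 over all genes. On the muscle mean (54.9% called), 10 of 11 fell and 1 rose, the exporter *ABCC1* (1.10, SE 0.10). In block 1 (36.5% called), 8 of 11 were lower than in blocks 2–4 by limma and 1 was higher, again *ABCC1* (0.59, SE 0.13, adjusted *p* = 0.000137). With the muscle mean held constant (14.4% called), 2 of 11 passed. They were *MGST2*, a microsomal glutathione transferase, which was lower in block 1 (-0.37, SE 0.091, adjusted *p* = 0.00360), and *ABCC3*, another exporter, which was higher (0.38, SE 0.10, adjusted *p* = 0.00713). *ABCC1* then had 0.17 (adjusted *p* = 0.262). These fits of the lists were chosen after seeing the data. On DMI, CH4 production and CH4 yield, 0 of the measured genes of these 3 lists passed by limma, without covariates or given live weight and muscle, and 0 to 3 genes per list had an unadjusted *p* under 0.05.

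Among the 14 metabolic genes of the study, *MAOA* had the second steepest slope on live weight given muscle after *CBR1*, and *SULT1C2* the third. The lowest of the 14 was RPL35-like (0.02 per 10 kg, SE 0.032, limma adjusted *p* = 0.854). All 14 slopes were positive, with a median of 0.12 against 0.00 over all genes, and 4 of 14 passed against 0.487% of all genes, *CBR1*, *MAOA*, *ACSF2* (0.11, SE 0.028, adjusted *p* = 0.0465), an acyl-CoA synthetase, and *BSG* (0.12, SE 0.030, adjusted *p* = 0.0480), the partner protein of monocarboxylate transporters. All 14 fell with the muscle mean (54.9% of all genes called). *SULT1C2* had the steepest fall (-0.90) and RPL35-like the smallest (-0.44). In block 1, 8 of 14 were lower than in blocks 2–4 by limma (36.5% called), and with the muscle mean held constant 1 of 14 was (14.4% called), RPL35-like (-0.21, SE 0.065, adjusted *p* = 0.0206). On CH4 production, *ACADS*, a short-chain acyl-CoA dehydrogenase, had the steepest slope (0.39 per 10 g/d, SE 0.097, adjusted *p* = 0.119), *SULT1C2* the third and *MAOA* the fifth. With live weight and muscle held constant, *ACADS* was still first (0.33), *SULT1C2* the second and *MAOA* the ninth, and 0 of 14 passed by limma (3 at an unadjusted *p* under 0.05). The list was chosen on these samples, so its direction on CH4 is not independent evidence. CH4 production itself went with live weight (*r* = 0.49, *n* = 62). The shared direction and the calls of the 14 genes on live weight are thus not independent of that choice either.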

How the data were processed

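Whole ventral rumen wall RNA of 62 sheep was sequenced by the authors as stranded, rRNA-depleted paired-end libraries. Alignment used TopHat with Bowtie2 against the Ensembl gene models of sheep, to which models of 1 locus were added, and HTSeq gave the counts. Per the labels, edgeR and limma were used too. The deposited values are log2 CPM from voom with an offset of 0.5 reads, for 16011 genes. The methods give a minimum of 1 CPM in all samples, but 4390 genes are under 1 CPM in some library. Whole reads were recovered in 100% of the lower values (tolerance 0.01 reads) and used only for depth and for the alternatives with other offsets or weights. Symbols for 1224 genes came from tables of the study.

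Slopes and differences were fitted over all genes with limma 3.58.1 (R 4.3.3; eBayes with trend), with Benjamini-Hochberg adjustment and a threshold of 0.05. Relations over sheep were measured as Pearson's *r* together with Spearman's rho, each with a 2-sided permutation *p* (100000 permutations, Python 3.11.15, scipy 1.17.1), and partial values use residuals. In all, 30 relations of the 2 genes with traits and the muscle mean and 6 between the genes were computed. Fold is 2 to the power of the slope. The sheep with an implausible DMI (oz151) was left out of DMI and CH4 yield and kept for live weight and CH4 production. Alternatives covered normalization, offset, low values, weights, variance trend, covariates and sheep left out. The fits of the live weight slope and of the block 1 difference without covariates were tested on simulated data with genes drawn independently. Fits with the muscle mean as a covariate were not tested in this way. The genes named beside *MAOA* and *SULT1C2* were the 5 nearest and 3 farthest with a symbol, the members of the amine turnover and sulfonation lists, and the steepest and flattest of the 14 metabolic genes; some of these are not reported here. *CBR1*, *UGDH*, *ABCC1*, *ABCC3*, *MGST2*, *ACSF2* and *BSG* were named for their calls after their values were seen. The genes and lists were chosen with earlier results of these data known. The New Zealand libraries, retention time and fatty acids were not analysed here.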

Additional observations from a re-analysis of the deposited data

How the results depend on the processing

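Apart from single sheep left out, 254 values recomputed under another setting kept their direction and their side of the threshold, 2 became stronger, 4 weaker and 6 changed sign. Of the counts of genes called per list, 44 stayed within 1.5 times. With the muscle mean held constant, block 1 calls came to 0 in amine turnover (3 without it), 0 in sulfonation (3), 2 in other conjugation (9) and 1 of the 14 metabolic genes (8). The slope of *MAOA* on live weight (0.20 per 10 kg) passed only with a muscle covariate, at 0.20 with the muscle list and 0.22 with the smooth muscle marker mean (limma adjusted *p* = 0.0189 and 0.0244). That call was lost at 0.18 without the 2 sheep of most extreme live weight, 0.20 without block 1, 0.17 with CH4 production as a further covariate and 0.19 with DMI as one. Over the other settings its adjusted *p* was 0.0130 to 0.0392, and with each sheep left out in turn the slope was 0.19 to 0.22, while that of *SULT1C2* was 0.10 to 0.20. The cause was not tested. Block 1 against blocks 2–4 changed sign with the muscle mean as a covariate (0.10 for *MAOA*, 0.29 for *SULT1C2*) and with live weight and the muscle mean (0.15 and 0.33). CH4 yield given live weight and muscle changed sign without the 2 farthest sheep (-0.062 for *MAOA* and -0.15 for *SULT1C2*). Values that changed sign passed the threshold on neither side. All alternatives to fits given muscle, or given live weight and muscle, were chosen after seeing the data. No paired analysis was possible because each sheep gave 1 library in 1 block. Counting error made up 0.501% of the variance of *MAOA* and 2.61% of that of *SULT1C2*.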
